A study of Mus musculus with 2 samples.

Results

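Genes of the outer skin barrier were read across 2 total RNA-seq libraries of gastrocnemius, a calf muscle. The members are 134 of the 55536 annotated genes, and of the 21901 genes with a protein-coding transcript. They were chosen by a symbol that names a cornified envelope protein, a desmosomal cadherin, a kallikrein, a transglutaminase or a hair keratin-associated protein. They fall into 8 classes: loricrin, involucrin and Krtdap (3 genes), late cornified envelope proteins (Lce, 21), small proline-rich proteins (Sprr, 16), fused S100-type proteins (7), desmosomal cadherins (9), kallikreins with their inhibitor Spink5 (14), transglutaminases (7) and keratin-associated proteins (Krtap, 57). The list was proposed because such genes were known to differ between these libraries, so every difference between the libraries below is a description and has no test.

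The animals were B6CASTF1/J males, a first-generation hybrid strain, taken at 4 days of age with no treatment named in the labels. They form 1 group of 2 biological replicates from separate animals. RNA input was 300 ng per library, and ERCC controls were added. Annotated genes held 35281187 expected counts in replicate 1 and 32301531 in replicate 2. The tissue label was checked against 8 skeletal muscle markers. All 8 stood at 662 TPM or more in both libraries, and Acta1, the skeletal actin gene, had 13742 TPM and 12991 TPM. Throughout, the first of a pair of values is replicate 1 and the second is replicate 2. TPM is a level scaled to transcript length and to library depth. For the members, 3 counts were worth 0.00638 to 0.777 TPM in replicate 1, depending on length. An animal, its dissection and its library preparation differ together here and cannot be told apart. In bulk tissue, fewer cells of a type and less RNA per cell cannot be told apart either.

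The cornified envelope is the protein shell that replaces the membrane of a dying keratinocyte at the skin surface. Its precursors, such as loricrin, involucrin and the Lce and Sprr proteins, are cross-linked by transglutaminases, while filaggrin and its relatives bundle keratin filaments and are later cut to small moisture-binding products. Desmosomes hold the keratinocytes together through cadherins called desmogleins and desmocollins, and kallikrein proteases cut these so that the outermost cells can shed. Keratin-associated proteins form the matrix between the keratin filaments of the hair shaft. Skeletal muscle fibres are not known to make a cornified envelope or a hair shaft.

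The members were low or at 0 in replicate 1 and spread over a wide range of levels in replicate 2. In replicate 1, 102 of the 134 members had no count, and 76 of these 102 had over 3 counts in replicate 2. In replicate 2, 20 members had no count, and 18 members had none in either library. A level of 1 TPM or more was reached by 4 members in replicate 1 and by 85 in replicate 2, while 25.2% of all annotated genes reached it in replicate 1 and 26.1% in replicate 2. The 4 members in replicate 1 were Tgm2, Krtdap, Klk8 and Flg. Ratios between libraries are expected counts of replicate 2 over replicate 1 after scaling by the trimmed mean of M-values. A mean count of 10 or more was reached by 90 members, of which 82 had under 10 counts in replicate 1 and so entered through replicate 2. Of these 90, 89 were over 2-fold higher in replicate 2, against 5.23% of the 17998 annotated genes at that mean count. None was over 2-fold higher in replicate 1, against 1.13% of all genes. The median log2 ratio of all genes at that mean count was 0.01. The exception among the 90 was Tgm2. The members were chosen on this contrast, so nothing is read from these shares.

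**Figure D1:**
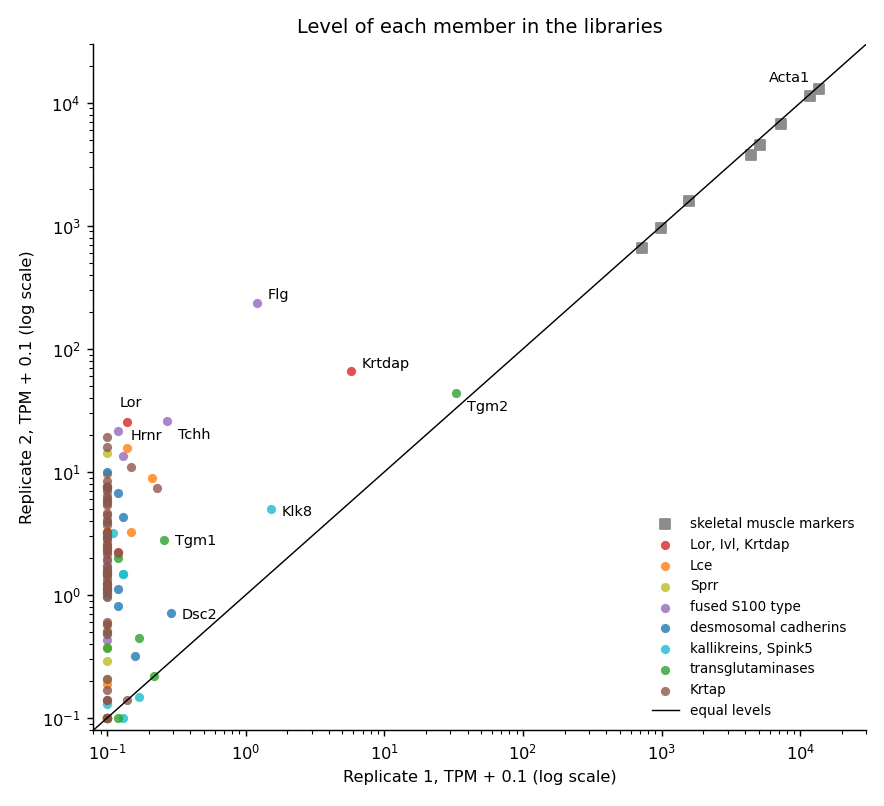
TPM of the 134 members in replicate 1 (horizontal) and replicate 2 (vertical), each plus 0.1 and on a log scale, coloured by class, with 8 skeletal muscle markers as grey squares and the line of equal levels. Muscle markers and Tgm2 sit near the line, while Flg (1.11 and 235.5 TPM) and Krtdap (5.68 and 65.8 TPM) lie above it and most other members stand at the left edge.

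The classes differed in how many counts they held in replicate 1. The fused S100-type genes together had 84 counts in replicate 1 and 42688 in replicate 2, a 538-fold ratio with an exact 95% counting interval of 435 to 675. The Krtap genes had 4 and 3068 counts, an 812-fold ratio (interval 317 to 2983). The Lce genes had 4 and 1377 counts, a 365-fold ratio (interval 142 to 1340). These intervals cover counting error only, and the ones resting on 4 counts are wide. The desmosomal cadherins had 41 and 3631 counts, a 93.8-fold ratio (interval 69.0 to 131). Loricrin, involucrin and Krtdap together had 47 and 1820 counts, a 41.0-fold ratio (interval 30.7 to 56.0). The kallikreins with Spink5 had 32 and 1022 counts, a 33.8-fold ratio (interval 23.8 to 49.7). Each of these 3 intervals lies below that of the fused S100-type genes. The Sprr genes had no count in replicate 1 and 342 in replicate 2. With the 0 set to a limit of 3 counts, the class ratio was 121-fold, and its exact interval begins at 97.7-fold. Folds given below as "at least" rest on that limit of 3 counts and leave out counting error. Their exact intervals begin lower. The transglutaminases stood apart, with 3374 and 4249 counts and a 1.33-fold ratio (interval 1.27 to 1.40), of which Tgm2 held 89.5% of the counts in replicate 2. Without Tgm2, the other 133 members had 235 counts in replicate 1 and 54395 in replicate 2, a 245-fold ratio (interval 216 to 280). They took 0.000666% of all annotated counts in replicate 1 and 0.168% in replicate 2.

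**Figure D2:**
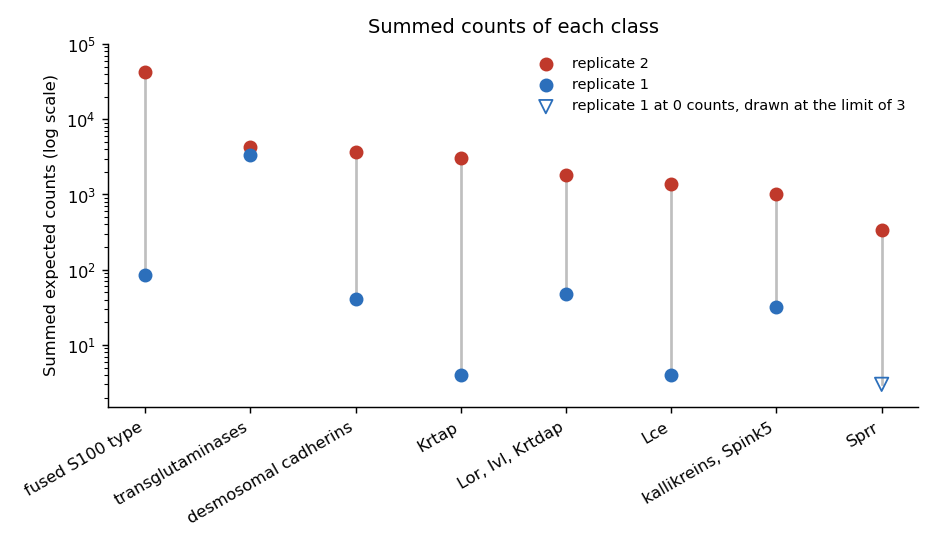
Summed expected counts of each class in replicate 1 (blue) and replicate 2 (red) on a log axis, with the classes in order of their counts in replicate 2 and the Sprr genes, at 0 in replicate 1, drawn as an open triangle at the limit of 3 counts. The fused S100-type genes span 84 to 42688 counts, while the transglutaminase points nearly touch at 3374 and 4249.

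The mix of the members also differed between the libraries. Leaving Tgm2 out, 5 genes held 160 of the 235 counts of replicate 1, or 68.1%. Krtdap held 18.7% of these counts in replicate 1 (exact 95% interval 13.9 to 24.3) and 0.998% in replicate 2 (0.916 to 1.08). Klk8 held 11.5% (7.71 to 16.3) and 0.153% (0.122 to 0.189). Dsc2 held 10.2% (6.65 to 14.8) and 0.134% (0.105 to 0.169). These 3 genes made up a larger part of the counts in replicate 1. Filaggrin made up a smaller part there, with 15.7% (11.3 to 21) and 50.1% in replicate 2 (49.6 to 50.5). The last of the 5, trichohyalin (Tchh), held 11.9% (8.07 to 16.8) and 7.43% (7.21 to 7.66). These 5 were picked for having most counts in replicate 1, which favours larger shares there, and the intervals cover counting error only. A share of 1 member can change because another member does.

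The start regions are shown because counted members of 3 families on chromosome 3 and of the Krtap clusters were mostly higher in replicate 2. In that library 26 of the 46 members on chromosome 3 reached 1 TPM. Of the 16 Sprr genes, 8 had no count in either library. RefSeq windows of 300 bases (250 before the transcript start and 50 after it, build GRCm38.p6) were found by symbol for 114 of the 134 members. Of their 118 windows, 96 had the bases 21 to 45 after the start in an annotated transcript of the gene. The rest were kept, so their start may differ from the annotated one. All 9 desmosomal cadherins were among the 20 members that were not searched. The letters TATAAA, a form of the TATA box that places the start of transcription, lay on the strand of the gene between 45 and 16 bases before the start in 53 of the 114 members (46.5%). The same was so for 3.12% of the 16522 protein-coding genes with a window. That zone was chosen after the windows had been read. Anywhere in the window and on either strand, TATAAA was in 57.9% of members and in 14.3% of all genes. By class, TATAAA lay in the zone before the start in 3 of 3 for Lor, Ivl and Krtdap, 10 of 14 Sprr genes, 32 of 51 Krtap genes, 3 of 7 fused S100-type genes, 2 of 6 transglutaminases, 2 of 20 Lce genes and 1 of 13 kallikreins. None of the 6 Lce3 genes had it there, while 7 of the 10 Sprr2 genes with a window did. TGANTCA, the letters that AP-1 factors are known to bind, was searched on both strands of the whole window. It was in 23.7% of the members and in 8.15% of all genes, with 9 of 14 Sprr genes, 5 of 7 fused S100-type genes and none of the 20 Lce genes. GGGCGG, common in promoters of widely expressed genes, was in 5.26% of members and in 51.0% of all genes. CCAAT was in 32.5% of members and in 42.1% of all genes. The 4 motifs were searched independently of each other. Members of a family share ancestry, so they are not independent draws. A match is a description of letters, not a bound site, and a window without one says only that these letters are not in it.

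Stretches of the 100 bases that end just before the RefSeq start are printed 5′ to 3′, with TATAAA and TGANTCA on the printed strand in capitals. They are the member of highest level with a single window in each class that was searched, with Lor and Lce1c as the next of theirs. Sprr3 and Lce3a, which had no count in either library, are shown for comparison. Krtdap is chr7:30787805-30787904 on the + strand, Lor chr3:92083143-92083242 on the - strand, Lce1m chr3:93019062-93019161 on the - strand and Lce1c chr3:92679147-92679246 on the + strand. Sprr1a is chr3:92485882-92485981 on the - strand, Flg chr3:93273446-93273545 on the + strand, Klk7 chr7:43811194-43811293 on the + strand and Tgm3 chr2:130012240-130012339 on the + strand. Krtap8-1 is chr16:89487953-89488052 on the - strand, Sprr3 chr3:92458721-92458820 on the - strand and Lce3a chr3:92926231-92926330 on the - strand.
Krtdap: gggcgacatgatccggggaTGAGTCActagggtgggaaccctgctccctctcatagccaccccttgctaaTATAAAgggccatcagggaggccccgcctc
Lor: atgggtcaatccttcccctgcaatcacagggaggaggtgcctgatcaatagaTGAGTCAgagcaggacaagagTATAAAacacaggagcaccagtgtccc
Lce1m: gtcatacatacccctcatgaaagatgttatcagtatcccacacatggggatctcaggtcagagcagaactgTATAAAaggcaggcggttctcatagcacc
Lce1c: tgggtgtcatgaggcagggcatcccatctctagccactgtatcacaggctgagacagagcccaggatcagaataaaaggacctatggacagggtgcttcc
Sprr1a: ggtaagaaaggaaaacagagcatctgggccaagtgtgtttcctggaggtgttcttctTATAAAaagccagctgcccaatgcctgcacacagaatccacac
Flg: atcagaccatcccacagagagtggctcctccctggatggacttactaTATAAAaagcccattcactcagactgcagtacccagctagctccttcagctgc
Klk7: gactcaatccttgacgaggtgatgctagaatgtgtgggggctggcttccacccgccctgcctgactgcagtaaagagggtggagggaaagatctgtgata
Tgm3: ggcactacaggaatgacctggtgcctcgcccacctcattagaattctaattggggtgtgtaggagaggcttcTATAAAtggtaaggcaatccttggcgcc
Krtap8-1: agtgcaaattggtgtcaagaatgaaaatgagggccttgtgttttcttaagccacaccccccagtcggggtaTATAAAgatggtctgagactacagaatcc
Sprr3: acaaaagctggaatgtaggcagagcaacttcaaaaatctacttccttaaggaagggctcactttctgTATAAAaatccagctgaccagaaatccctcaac
Lce3a: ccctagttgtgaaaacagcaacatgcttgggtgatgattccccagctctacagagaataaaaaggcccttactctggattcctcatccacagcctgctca
The TATAAA begins 30 bases before the start in Krtdap, 27 in Lor, 29 in Lce1m, 43 in Sprr1a, 53 in Flg, 28 in Tgm3, 29 in Krtap8-1 and 33 in Sprr3. The annotation used for counting places the start of Sprr1a, of Flg and of Krtdap upstream of the RefSeq one. Lce1c and Klk7, both counted in replicate 2, have neither motif in the stretch shown, and nor does the uncounted Lce3a. The uncounted Sprr3 does have TATAAA.

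Loricrin, the glycine-rich protein that makes up much of the envelope, had 2 counts (0.04 TPM) in replicate 1 and 1171 counts (25.6 TPM) in replicate 2. The ratio was 620-fold, and with 2 counts its interval ran from 171 to 5126. Involucrin (Ivl), an early scaffold of the envelope, had 1 count (0.02 TPM) and 106 counts (2.13 TPM), a 112-fold ratio with an interval of 19.7 to 4475. Krtdap, a small secreted protein of differentiating keratinocytes, was the highest member after Tgm2 in replicate 1. It had 44 counts (5.68 TPM) in replicate 1 and 543 counts (65.8 TPM) in replicate 2, a 13.1-fold ratio (interval 9.60 to 18.2). That interval lies below those of loricrin and involucrin. Krtdap lies on chromosome 7 (mm10, 30787896 to 30791097, + strand) next to Dmkn (30763756 to 30781063) and Sbsn (30751471 to 30756134), which encode other secreted proteins of the epidermis. Sbsn had 79.5 and 1260 counts, a 16.8-fold ratio that lies within the interval of Krtdap. Dmkn, between them, had 8 and 1689 counts, a 224-fold ratio. The leading transcript of Krtdap, Krtdap-203, held 42.7% of the TPM of the gene in replicate 2. The second deposited quantification, made directly from reads, assigned that transcript nothing and gave Krtdap 20 and 269 counts in all, less than the alignment-based count in both libraries.

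The fused S100-type proteins carry a calcium-binding start and long internal repeats. Filaggrin (Flg), which bundles keratin filaments and feeds the moisture-binding pool of the skin, was the member of most counts in replicate 2. It had 37 counts (1.11 TPM) in replicate 1 and 27232 counts (235.5 TPM) in replicate 2, a 779-fold ratio (interval 565 to 1107). By TPM it stood at rank 13681 of the annotated genes in replicate 1 and at rank 306 in replicate 2. Hornerin (Hrnr), a relative of filaggrin in the envelope, had 6 and 6491 counts (0.02 and 21.5 TPM), a 1146-fold ratio (interval 526 to 3123). Filaggrin-2 (Flg2) had 13 and 4714 counts (0.03 and 13.5 TPM), a 384-fold ratio (interval 224 to 722). Trichohyalin, which hardens the inner root sheath of the hair, had 28 and 4043 counts (0.17 and 25.9 TPM). Its ratio of 153-fold (interval 106 to 230) was below the intervals of Flg and Hrnr. The other 3 had no count in replicate 1. In replicate 2 Tchhl1, a trichohyalin relative, had 96 counts (1.79 TPM, at least 33.9-fold higher). Cornulin (Crnn), known from the oesophagus and upper epidermis, had 76 counts (1.58 TPM, at least 26.8-fold higher). Repetin (Rptn), an envelope precursor, had 36 counts (0.33 TPM, at least 12.7-fold higher) and shares exon sequence with Gm37857.

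The level of filaggrin depends on how its repeats were assigned to transcripts. Of its 10 annotated transcripts, 6 are 756 to 777 nt long and the longest has 14497 nt. In replicate 2 the short ones held 8.89% of the alignment-based counts of Flg but 56.1% of its TPM, because TPM divides by length. The longest held 85.8% of the counts and 25.3% of the TPM. In the quantification made directly from reads the short transcripts held 47.1% of the counts and 86.2% of the TPM. There, Flg had 2.60 and 1866 TPM, against 1.11 and 235.5 TPM in the first. Its counts in the second were 50 and 29183, closer to those of the first. The leading transcript by TPM was Flg-203, with 33.3% of the TPM of the gene. For Flg2 the leading Flg2-201 held 57.2% of the TPM and 30.9% of the counts. The second quantification gave Flg2 8101 counts in replicate 2, against 4714. The TPM of these repeat-rich genes therefore carries this limit where it is set beside other genes.

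The Lce and Sprr genes are short precursors that are cross-linked into the envelope late in differentiation. Within both families some subfamilies were counted in replicate 2 and others were not. All 14 Lce1 genes stood between 1.05 and 15.7 TPM in replicate 2, with a median of 3.59 TPM, and none was above 0.11 TPM in replicate 1. Lce6a had 27 counts (2.57 TPM) in replicate 2 and none in replicate 1. The 6 Lce3 genes, known for their rise in injured or inflamed skin, together had 1 count in replicate 2 and none in replicate 1, so 5 of them had no count in either. Highest was Lce1m, with 1 count in replicate 1 and 331 (15.7 TPM) in replicate 2, a 351-fold ratio with an interval of 62.5 to 13887. Lce1c followed with 0 and 162 counts (9.49 TPM), at least 57.1-fold higher in replicate 2. Lce1a1 had 2 and 145 counts (8.77 TPM), a 76.7-fold ratio (interval 20.9 to 640). Of the others named by their level, Lce1b, Lce1d and Lce1a2 had no count in replicate 1 and 114, 116 and 97.4 counts in replicate 2. The Lce1 genes are close copies of each other. The deposited posterior SD of the count was 1.57 counts for Lce1a1 and 0.89 for Lce1c in replicate 2, small beside the counts. That SD does not cover the difference between quantifications. The one made directly from reads gave Lce1a1 81.3 counts and Lce1c 78.1 counts in replicate 2.

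Sprr1a, which is widely used in squamous epithelia, held most of the Sprr counts. It had none in replicate 1 and 271 (14.1 TPM) in replicate 2, at least 95.7-fold higher and 79.2% of the class. Sprr1b had 19 counts (0.95 TPM) and Sprr4 had 8 counts (2.22 TPM) in replicate 2. Both had none in replicate 1. The quantification made directly from reads gave Sprr4 no count in either library and Sprr1b 15 counts (1.53 TPM) in replicate 2. Of the 12 Sprr2 genes, 7 had no count in either library and the highest, Sprr2a2, had 25.5 counts (1.5 TPM) in replicate 2. Next came Sprr2a3 with 8.47 counts (0.47 TPM) and Sprr2h with 5 counts (0.28 TPM). Sprr2a2 shares exons with Sprr2a1, which had no count, so the split between them is uncertain. Sprr3, a precursor of the oral and oesophageal lining, had no count in either library. In each library that allows up to 3 counts.

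**Figure D3:**
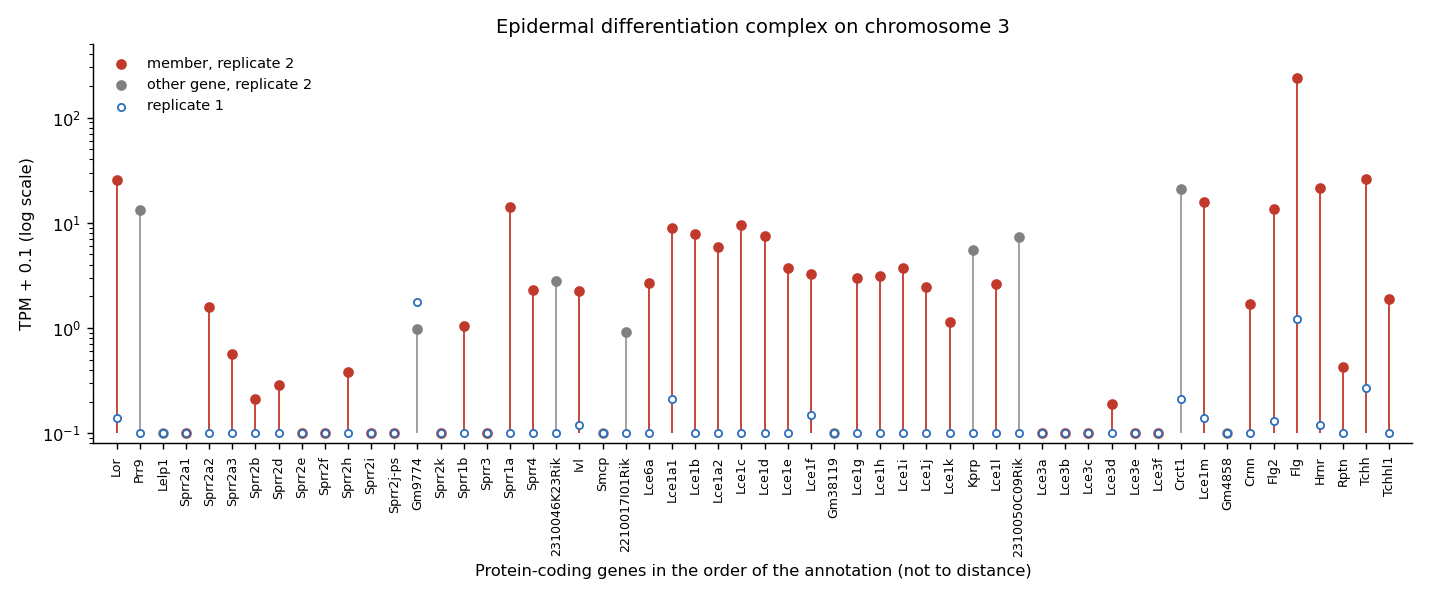
TPM plus 0.1, on a log scale, of the 56 protein-coding genes from Lor to Tchhl1 in the order of the annotation, with replicate 2 as filled points (red for members, grey for other genes) and replicate 1 as open blue circles. Lor, Sprr1a, the Lce1 genes and the run from Flg2 to Hrnr stand out in replicate 2, while most Sprr2 genes and the Lce3 genes sit at the floor in both libraries.

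These families lie together on chromosome 3 (mm10, 92080271 to 93471980), a stretch of 1.39 Mb known as the epidermal differentiation complex. It holds 46 of the members, of which 26 reached 1 TPM in replicate 2. The counted genes do not form 1 unbroken run, as the plot in gene order shows. The Lce3 genes lie between Lce1l and Lce1m, both of which were counted in replicate 2. Crct1, a cysteine-rich neighbour of Lce1m that was singled out after its values were seen, had 0.11 and 20.9 TPM. Sprr2g, annotated as a polymorphic pseudogene, is not drawn in that plot.

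Transglutaminases form the cross-links of the envelope. Tgm1, Tgm3 and Tgm5 are the epidermal and hair enzymes, and Tgm2 is a tissue enzyme found in many cell types. Tgm1, bound to the keratinocyte membrane, had 12 counts (0.16 TPM) in replicate 1 and 188 counts (2.70 TPM) in replicate 2, a 16.6-fold ratio (interval 9.28 to 32.7). Its leading transcript Tgm1-203 held 63.2% of its TPM in replicate 2, and 47.5% in the quantification made directly from reads. Tgm3, the main enzyme of the hair follicle and upper epidermis, had 2 and 208 counts (0.02 and 1.89 TPM), a 110-fold ratio (interval 30.1 to 916) or 6.78 on the log2 scale. The quantification made directly from reads gave Tgm3 16.7 and 226.5 counts, a log2 ratio of 3.84 that lies below that interval. Tgm5 had 5 and 24 counts (0.07 and 0.35 TPM), a 5.08-fold ratio (interval 1.90 to 17.1). Tgm2 had a different pattern. It had 3351 counts (33.0 TPM) in replicate 1 and 3802 counts (43.4 TPM) in replicate 2, a 1.20-fold ratio (interval 1.15 to 1.26). Its leading transcript Tgm2-201 held 91% of its TPM in replicate 2. Antisense exons of Gm20412 and Rprd1b overlap Tgm2, and whether counting used strand is not stated. Tgm6, described mainly in the nervous system, had 0 and 23 counts (0.27 TPM in replicate 2), at least 8.12-fold higher. The prostate enzyme Tgm4 had 3 and 4 counts, a 1.41-fold ratio whose interval of 0.239 to 9.64 spans equality. Tgm7 had 1 count in replicate 1 and none in replicate 2, both at or under the limit of 3 counts.

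The desmosomal cadherins split into genes of the stratified epidermis and genes with a wider use. Desmogleins 1, 3 and 4 and desmocollins 1 and 3 are known from the epidermis and the hair, whereas Dsg2 and Dsc2 are also made by simple epithelia and heart. In replicate 2, Dsc1 had the highest level, with 900 counts (9.87 TPM) against none in replicate 1, at least 318-fold higher. Dsg1a had 1133 counts (7.44 TPM) against none, at least 400-fold higher. Dsc3 had 2 and 751 counts (0.02 and 6.61 TPM), a 398-fold ratio (interval 110 to 3290). The mouse has 3 Dsg1 copies, and their counts differed. Dsg1b had 3.37 and 447 counts (0.03 and 4.24 TPM), a 140-fold ratio (interval 53.7 to 768). Dsg1c had 6.63 and 24.2 counts (0.06 and 0.22 TPM), a 3.86-fold ratio (interval 1.52 to 9.98), below that of Dsg1b. Reads of near-identical copies are split by estimation, and the deposited posterior SD in replicate 2 was 11.9 counts for Dsg1a and Dsg1b and 1.90 for Dsg1c. Summed, the 3 copies had 10 and 1604 counts, of which Dsg1a held 70.6% in replicate 2.

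Dsg3, the desmoglein of basal cells, had 0 and 144 counts (0.93 TPM in replicate 2), at least 50.8-fold higher. Dsg4, which is known from the hair shaft, had 2 and 94 counts (0.02 and 1.02 TPM), a 49.8-fold ratio (interval 13.4 to 417). The widely used Dsc2 had 24 counts (0.19 TPM) in replicate 1, the most of any desmosomal cadherin there, and 73 counts (0.61 TPM) in replicate 2. Its ratio was 3.22-fold (interval 2.01 to 5.34), and this interval lies below that of Dsg4. Dsg2 had 3 and 65 counts (0.02 and 0.71 TPM), a 22.9-fold ratio (interval 7.51 to 114), or 4.52 on the log2 scale, and Gm16090 lies antisense to it. The quantification made directly from reads gave Dsg2 13 and 83.2 counts, a log2 ratio of 2.76 that lies below that interval. The 7 epidermal genes, all 3 Dsg1 copies included, together had 14 and 3493 counts, a 264-fold ratio (interval 157 to 484). Dsg2 with Dsc2 had a 5.41-fold ratio (interval 3.56 to 8.51). The grouping was made with these values known. The leading transcripts by TPM were Dsc1-201 with 47.5% and Dsc3-201 with 68.7% of their gene in replicate 2.

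Inside the cell, desmosomal cadherins are tied to keratin filaments by plakoglobin (Jup), plakophilins and desmoplakin (Dsp). Of the 7 genes of this plaque, 4 were over 2-fold higher in replicate 2 and 3 were within 2-fold. Their median difference was 5 on the log2(TPM + 0.1) scale. Over all annotated genes it was 0.00, but 27449 of those 55536 genes had no count in either library. That value is therefore no background for counted genes. Desmoplakin had 22 and 5348 counts (0.09 and 23.4 TPM), a 257-fold ratio. Perp, a membrane protein of the epidermal desmosome, had 27 and 1470 counts (0.50 and 29.1 TPM), a 57.7-fold ratio. The other plaque genes of highest level were nearly equal between the libraries. Jup, which also serves other junctions, had 2940 and 3341 counts (37.3 and 49.4 TPM), a 1.20-fold ratio. Pkp4 had 1214 and 1317 counts (16.8 and 18.8 TPM), a 1.15-fold ratio. The remaining 3 were looked up after their values were seen. Pkp1 and Pkp3, plakophilins of stratified epithelia, had ratios of 112-fold and 116-fold, and Pkp2 had 42 and 49 counts.

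Kallikreins 5 and 7 are the main proteases that cut desmosomes at the skin surface, and Spink5 encodes their inhibitor LEKTI. Spink5 had 1 count (0.01 TPM) in replicate 1 and 394 counts (3.08 TPM) in replicate 2, a 417-fold ratio with an interval of 74.5 to 16522. Klk7 had 0 and 282 counts (5.76 TPM in replicate 2), at least 99.6-fold higher. Klk5 had 0 and 91 counts (3.79 TPM), at least 32.1-fold higher. Both proteases and the inhibitor were at 0 or 1 count in replicate 1. Klk10 had 1 and 48 counts (1.38 TPM in replicate 2) and Klk6 had 1 and 41 counts (1.37 TPM). Klk11 had 0 and 32 counts (1.01 TPM). Klk8, a protease of skin and brain, had the most counts of the class in replicate 1. It had 27 counts (1.43 TPM) in replicate 1 and 83 counts (4.91 TPM) in replicate 2, a 3.25-fold ratio (interval 2.09 to 5.23). The antisense gene 2310002F09Rik overlaps it. Of the 13 kallikreins, 5 had 3 counts or fewer in both libraries.

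The protease control list outside the members had 9 genes in the tables, of which 6 reached a mean count of 10 and 5 of these were over 2-fold higher in replicate 2. The median difference of the list was 1.24 on the log2(TPM + 0.1) scale. The lysosomal protease Ctsl had 77 and 76.9 TPM. Cystatin 6 (Cst6), which restrains it in the epidermis and is also on the envelope list, had 0.68 and 17.6 TPM, a 33.2-fold ratio. The membrane inhibitors Spint2 and Spint1 had ratios of 2.40-fold and 32.3-fold.

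**Figure D4:**
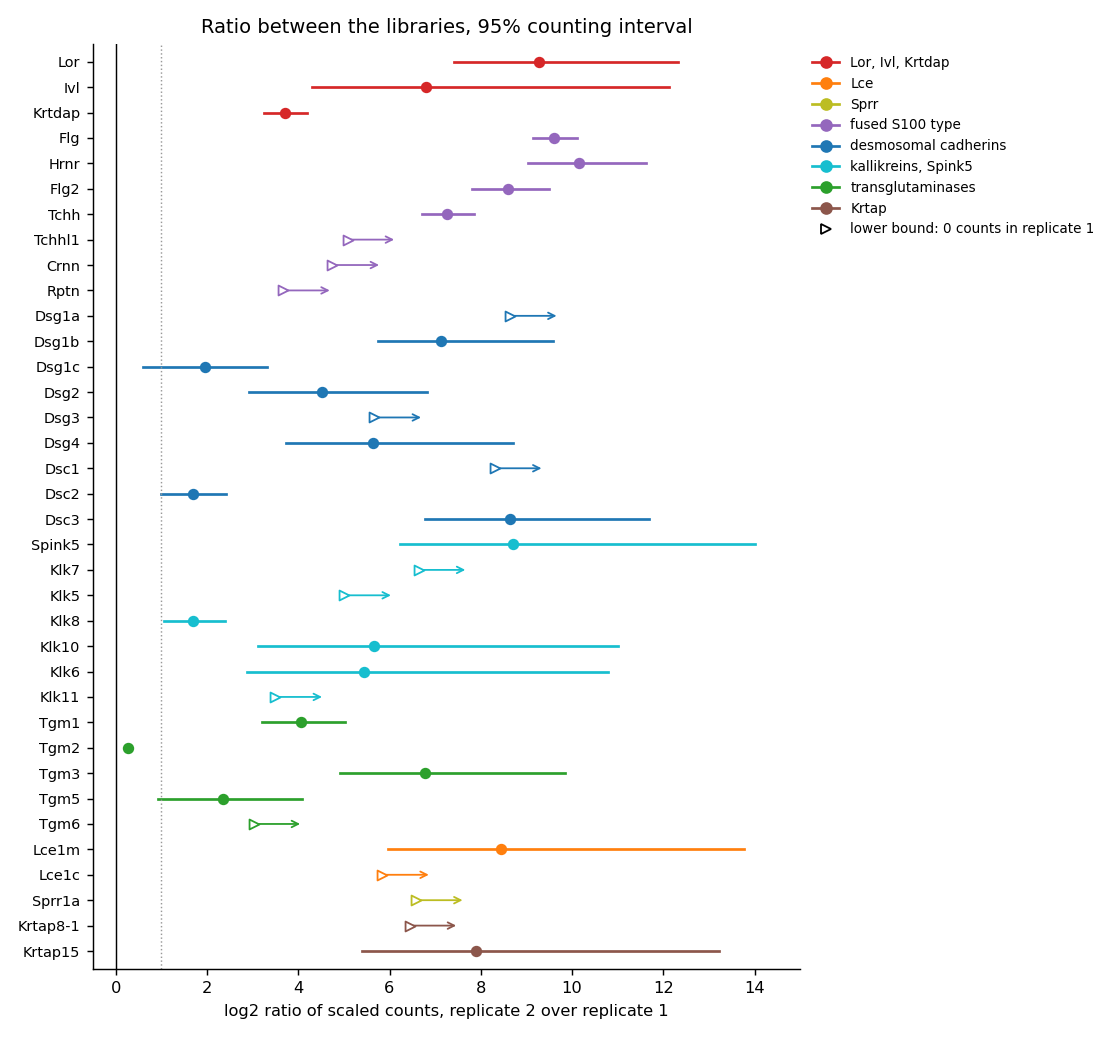
Log2 ratio of scaled counts, replicate 2 over replicate 1, of 36 members by role, with exact 95% counting intervals as lines and open triangles with arrows for lower bounds where replicate 1 had no count. Tgm2 lies at 0.26 beside the line of no difference, and Krtdap, Dsg1c, Dsc2, Klk8 and Tgm5 lie below most others.

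Keratin-associated proteins were the class of most genes. Of the 57 genes, 53 had no count in replicate 1 and the highest stood at 0.13 TPM there. In replicate 2, 54 had a count, 43 reached 1 TPM and 3 were above 10 TPM. Their genes lie in clusters, with 24 on chromosome 16, 23 on chromosome 11, 5 on chromosome 7, 3 on chromosome 10 and 2 on chromosome 1. In replicate 2, 19 of the 24 genes on chromosome 16 and 17 of the 23 on chromosome 11 reached 1 TPM. Krtap8-1 was highest, with 0 and 246 counts (19 TPM), at least 86.8-fold higher. Krtap7-1 had 0 and 226 counts (15.9 TPM), at least 79.8-fold higher. Krtap15 had 1 and 225 counts (0.05 and 11 TPM), a 238-fold ratio with an interval of 42.3 to 9453, and it shares exon sequence with 4930553J12Rik. The next 3 were Krtap3-1 with 114 counts (8.28 TPM), Krtap19-5 with 80 counts (7.51 TPM) and Krtap19-3 with 87 counts (7.48 TPM), each with none in replicate 1.

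Keratin-associated proteins are grouped by composition. By family number alone, the families 6, 7, 8, 19, 20, 21 and 22 were taken as rich in glycine and tyrosine. Protein composition was not computed here, so a gene such as Krtap16-3 (5.99 TPM in replicate 2), put with the others, may be misplaced. This grouping was made after the values were seen. The 15 genes of these families held 47.4% of the Krtap TPM in replicate 2, with a median of 3.74 TPM and a highest of 19 TPM. The other 42 held 52.6% with a median of 1.39 TPM. In replicate 1 they had 1 and 3 counts, so no mix can be read there.

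The Lce, Krtap and Sprr classes were counted lower by the second quantification, though not every member was. In replicate 2 it gave the Lce genes 61.5% of the alignment-based counts, the Krtap genes 72.6% and the Sprr genes 76.6%. Their median effective lengths were 579, 757 and 603 nt. The cadherins, with a median of 3989 nt, had 109% and the fused S100-type genes 114%. The kallikreins with Spink5 and the transglutaminases had 104% each, and Lor, Ivl and Krtdap had 87.9%. Whether length accounts for this was not tested. The shift was larger for some genes, with 39 rather than 80 counts for Krtap19-5 and 78.1 rather than 162 for Lce1c. For Krtap22-2 it gave 1 rather than 53 counts, and 0.561 rather than 7.31 TPM. That gene is in the families taken above as rich in glycine and tyrosine. The short Lce6a, with an effective length of 386 nt, had 29 rather than 27 counts.

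Genes that act with the members were read from lists of other barrier genes, beside the 5.23% of all genes that were over 2-fold higher in replicate 2. For envelope scaffold and maturation, 14 of 15 genes were over 2-fold higher in replicate 2, and the median difference was 4.50 on the log2(TPM + 0.1) scale. Dmkn had 0.35 and 48.0 TPM, Sbsn 1.68 and 35.9 TPM, and the filaggrin-cutting protease Asprv1 0.17 and 32.2 TPM. The exception was the widely expressed cystatin Cstb with 19 and 22.9 TPM. For the lipid barrier of the horny layer, 7 of the 13 genes that reached a mean count of 10 were over 2-fold higher and 6 were within 2-fold, with a median difference of 2.02 over the list. The 4 highest of that list, which also serve other tissues, were all within 2-fold. Among them were the fatty acid elongase Elovl1 (1.68-fold), the sphingomyelinase Smpd1 (1.14-fold) and the glucosylceramide synthase Ugcg (1.15-fold). For tight and gap junctions, all 9 genes at that mean count were over 2-fold higher, with a median difference of 2.08 over the list. They were led by claudin-1 (Cldn1) at 3.27 and 6.85 TPM and by connexin 26 (Gjb2) at 0.49 and 4.18 TPM. Claudin-4 (Cldn4) had 1 and 106 counts, a 112-fold ratio or 6.81 on the log2 scale, with a log2 interval of 4.30 to 12.13.

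On the list of regulators of epidermis and hair, which also holds the enzymes Padi1 and Padi3, 12 of 17 genes were over 2-fold higher. Both Padi genes were among the 12. The median difference of the list was 2.25 on the log2(TPM + 0.1) scale. The 4 of highest level were not among the 12. Klf4, a barrier regulator with roles in many tissues, had 20.1 and 20.4 TPM. Klf5 had 8.17 and 11.1 TPM. Trp63, the master regulator of stratified epithelia that is also made elsewhere, had 4.56 and 6.37 TPM, a 1.63-fold ratio. Hr, a hair cycle repressor, had 3.83 and 4.55 TPM. For epithelial adhesion, 4 of 7 genes were over 2-fold higher, with a median difference of 2.20. Among them was E-cadherin (Cdh1) at 0.48 and 5.46 TPM. Dystonin (Dst) had 77.9 and 77.6 TPM, integrin alpha 6 (Itga6) 29.9 and 44.6 TPM and integrin beta 4 (Itgb4) 2.52 and 4.37 TPM. In both lists, the genes of highest level in replicate 1 had ratios under 2-fold.

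**Figure D5:**
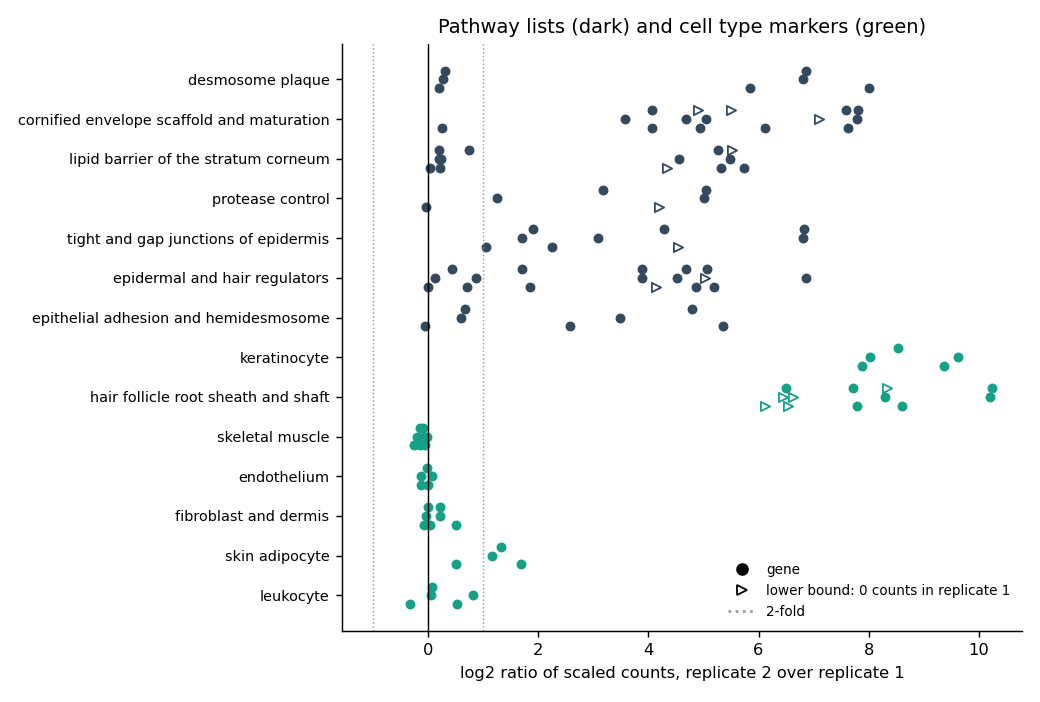
Log2 ratio of scaled counts, replicate 2 over replicate 1, of each gene with a mean count of 10 or more in 7 pathway lists (dark) and 7 of the 13 marker lists (green), with dotted lines at 2-fold and open triangles for lower bounds. Keratinocyte and hair follicle markers lie far right, muscle, endothelial and fibroblast markers lie near 0, and the pathway lists spread from near 0 to the right.

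Markers of other cell types moved with the members, and their part in the result was not tested. All 6 keratinocyte keratins were higher in replicate 2, and together they had 3.99 and 670.4 TPM. Krt10 had 3.33 and 282 TPM, Krt1 0.33 and 269 TPM, Krt5 0.16 and 60.8 TPM and Krt14 0.06 and 43.1 TPM. Krt2 was at 0 counts in replicate 1 and 8 in replicate 2. The 12 hair follicle keratins summed to 0.21 and 139 TPM, and 5 of them were at 0 in replicate 1. Krt71 of the inner root sheath had 2 and 2240 counts. The members without Tgm2 had a 245-fold ratio, beside 405-fold (interval 333 to 497) for the keratinocyte keratins and 655-fold (interval 366 to 1312) for the hair keratins. Among the 163 genes over 32-fold higher in replicate 2 (0.906% of those at a mean count of 10 or more), 38 were members, 30 were keratins and 95 were other genes. Of the 941 genes over 2-fold higher in replicate 2, 819 were neither members nor keratins. The 3 keratins of the oral and oesophageal lining, Krt4, Krt13 and Krt76, summed to 0.20 and 0.24 TPM.

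Markers of other cells that skin or muscle can hold had smaller ratios as summed counts. The 4 adipocyte markers summed to 222 and 361 TPM (1.71-fold), led by Fabp4 at 192 and 281 TPM (1.42-fold). The other 3 were over 2-fold higher in replicate 2, with Plin1 at 10.8 and 35.0 TPM (3.20-fold), Adipoq at 14.6 and 32.9 TPM (2.52-fold) and Cidec at 5.04 and 12.2 TPM (2.25-fold). The 6 melanocyte markers summed to 3.13 and 8.13 TPM. The 5 sebaceous markers summed to 3.42 and 9.12 TPM, with Elovl3 and Scd3 at 0 in replicate 1. Mc5r, also on the sebaceous list, went the other way, with 177 and 103 counts (1.59 and 0.99 TPM). The 3 Langerhans markers summed to 3.27 and 10.4 TPM, with Cd207 at 0 and 7 counts. Merkel cell markers summed to 2.68 and 2.80 TPM, with Atoh1 at 0 in both. The 7 fibroblast and dermis markers summed to 5167 and 5134 TPM, the endothelial markers to 165 TPM in each library, and the leukocyte markers to 20.9 and 24.5 TPM. The cardiomyocyte markers summed to 49.6 and 60.8 TPM, almost all of it Myh6, and Nppa was at 0 in both. The 8 muscle markers summed to 45516 and 42384 TPM.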

How the data were processed

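Total RNA-seq was measured in 2 libraries of 1 group. The deposited tables, 1 set per library and not pooled, were made by the authors on mm10 with GENCODE M21, per the deposited notes. The aligner is not given in the sources used here, nor are program versions and the strand setting. Expected counts and TPM per gene and transcript come from alignments to the transcriptome, and the deposited notes describe another set of estimated counts and TPM, made from the reads without those alignments. A column of transcript shares, in percent of the TPM of the gene, is part of the authors' tables of transcripts. The gene tables as deposited by the authors give lengths and a posterior SD of the count, which reflects how reads that match several genes were shared out and was read as a non-negative signal value.

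Computed here were class sums, shares and log2 ratios of unrounded expected counts, scaled by the TMM factors of edgeR 4.0.16 in R 4.3.3. Entries outside the gene annotation held 54 and 56 counts and, with the ERCC controls, were left out. Intervals are exact Clopper-Pearson 95% intervals of counts (scipy 1.17.1) and cover counting error only, since no molecular identifiers are named in the sources. A gene at 0 was set to 3 counts and its fold given as a lower bound, written "at least". That bound leaves out counting error, and the exact interval begins lower, at 258 rather than 318 for Dsc1. A median TPM difference used log2(TPM + 0.1), which understates differences of low genes. Calls of 2-fold were limited to a mean count of at least 10. With 1 group, no test was made. The ratio code was tested on simulated data. Tables and plots were made with Python 3.11.15, pandas 2.3.3 and matplotlib 3.10.9.

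Members and lists were chosen with earlier results of these data known. Named with values were Lor, Ivl, Krtdap, Spink5, all fused S100-type genes, desmosomal cadherins and transglutaminases, up to 6 members of highest TPM in each other class, up to 4 genes of highest mean TPM in the 7 pathway lists, and the leading transcript of members with a mean count of 100 or more. A few list genes that this rule names are not reported here. Of the pathway and 13 marker lists, Cysrp1, Ctsv and Krt85 were not found by symbol. Of the members, 6 share exon sequence with another gene on the same strand and 8 with one on the other strand, and copies within the Lce, Sprr, Krtap and Dsg1 families share reads, so their split is uncertain. Promoter windows are RefSeq's, build GRCm38.p6. Alternatives were total counts, DESeq2 1.42.0 size factors, ERCC controls, the tables made directly from reads, summed TPM, other thresholds and leaving out the member of highest count.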

Additional observations from a re-analysis of the deposited data

How the results depend on the processing

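Every ratio rests on 2 animals, so no ratio could be computed with a library left out. No paired analysis was possible because there is 1 group and no test. Class values follow as log2 ratios of replicate 2 over replicate 1, and the cause of each shift was not tested unless the setting itself is the removal of a gene. The Lce value of 8.51 and the Krtap value of 9.67 stayed within counting error under every setting run. Each rests on 4 counts in replicate 1, so that error is wide. Their log2 intervals were 7.15 to 10.39 and 8.31 to 11.54, which can hold larger shifts than those of the other classes. For Lce, the tables made directly from reads gave 8.81. For all members, 4.10 became 7.94 without Tgm2 (chosen after seeing the data), 3.21 without the member of highest count (Flg), 4.18 with ERCC scaling and 4.17 from summed TPM. Leaving out its member of highest count gave 3.93 for Lor, Ivl and Krtdap (from 5.36), 4.65 for the Sprr bound (from 6.92), 8.44 for the fused S100-type genes (from 9.07), 6.01 for the cadherins (from 6.55), 4.42 for the kallikreins with Spink5 (from 5.08) and 4.36 for the transglutaminases (from 0.42). Summed TPM gave 4.03, 7.82, 3.82 and 0.54 for Lor with Ivl and Krtdap, the fused S100-type genes, the kallikreins and the transglutaminases, and no ratio for Sprr. Tables made directly from reads gave 6.14 for Lor, Ivl and Krtdap and 6.53 for Sprr, and ERCC scaling gave 0.50 for the transglutaminases. At 2 TPM, 2 members rather than 4 passed in replicate 1. With a mean count of 50 or more, 31 rather than 89 members were over 2-fold higher. Fewer members reached that mean count, and Tgm2 was again the only exception among them. The share of all genes at that mean count was not computed. Of 50 named members with a ratio, none changed direction under total counts, DESeq2 size factors or ERCC scaling, nor did the 35 that stayed and 14 that moved with the tables made directly from reads, which gave Sprr4 no count. In all, 184 of these values stayed within counting error and 15 did not, among them Tgm3 (3.84) and Dsg2 (2.76) with the tables made directly from reads. Where replicate 1 was near 0, a value could stay within counting error and still shift widely. Tables made directly from reads took Lce1m from 8.45 to 6.38, Krtap15 from 7.90 to 5.91 and Dsg1a from 8.64 to 10.09. In each of these pairs 1 value is a lower bound. With a pseudocount of 1 TPM, the median difference moved in all 8 classes.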
